A study of Mus musculus with 4 samples.

Results

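The 42 genes described here encode the cyclins, the cyclin-dependent kinases (Cdks) that cyclins switch on, the Cdk inhibitors, the pocket proteins and E2f transcription factors, and the licensing factors, phosphatases, mitotic kinases and ubiquitin ligase parts that time the division of mouse cells. They were chosen by symbol and ordered by the phase of the cell cycle in which they act. The rule used no measured value, but the genes were chosen with earlier results of these data known. All 42 were found among the 37310 genes of the deposited table. They were measured by mRNA-seq in mouse embryonic stem cells (mESCs) of the JM8 line, derived from the C57BL6/N strain, in 2 wild-type libraries and 2 libraries labelled Bmal1-/-, which are all 4 libraries of the series. Bmal1, listed under the symbol Arntl, encodes a transcription factor of the molecular clock. The Bmal1-/- cells were 1 clonal line, made from JM8 with CRISPR/Cas9 aimed at exon 5 and carrying indels on both alleles, so the genotype and any other property of that clone cannot be told apart. Cells of both genotypes grew without feeders on gelatin in serum-free N2B27 with LIF, the Mek inhibitor PD0325901 at 1 µM and the Gsk3 inhibitor CHIR99021 at 3 µM. The question put to these libraries was how mRNA levels differ between wild-type cells and cells of this edited line.

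A cell enters S phase after D-type cyclins with Cdk4 or Cdk6, and then E-type cyclins with Cdk2, have phosphorylated the pocket proteins, which hold E2f factors in check. Cyclin A and cyclin B with their Cdks drive S phase, G2 and mitosis, and the anaphase-promoting complex (APC/C) with Cdc20 or Fzr1 then destroys the cyclins. mESCs are known for a short G1 phase, for cyclin E and Cdk2 activity that stays high through the cycle, and for little cyclin D and Cdk inhibitor protein.

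The values are read counts per gene normalized by the trimmed mean of M values (TMM), so they compare a gene between libraries, and they compare genes only after division by exon length. The wild-type libraries held 21737170 and 21504265 reads on genes, and the Bmal1-/- libraries held 23329034 and 23021702. In every library the value of 1 read was near 1, and 3 reads corresponded to a value of 2.82 to 3.19. Arntl mRNA was still present in the libraries labelled Bmal1-/-, at 556 and 590 where wild-type libraries had 678 and 733 (log2 fold change -0.30, adjusted p = 0.00113 by limma), a gene-level value that does not read the edited bases. The summed level of 11 pluripotency markers, Pou5f1 and Nanog among them, lay between 103053 and 104406 in all 4 libraries, while the single markers went both ways: 4 were higher in the Bmal1-/- libraries (Nanog 0.25 and Tbx3 0.36 on the log2 scale among them) and 6 were lower (Dppa3 -0.95 and Utf1 -0.89 among them). Of 10 fibroblast markers, Lum and Dcn were at 0 in all 4 libraries and 6 had no more than 3 reads in any library, and the summed level was 117 to 156, with Thy1 higher (0.59). The 8 primitive endoderm markers summed to 12069 to 12616, of which Sparc, which did not pass, made up 11352 to 12009; of the others Sox7 was lower (-2.41) and Sox17 (1.27), Gata4 (0.55) and Lama1 (0.31) were higher. The 7 primed epiblast markers summed to 3437 to 3799, with Lef1 (-1.21) and Dnmt3b (-0.26) lower and Dnmt3a (0.59) higher. The 6 trophoblast markers summed to 564 and 565 in wild-type and 455 and 446 in Bmal1-/- libraries, with Cdx2 (-0.74) and Eomes (-0.83) lower. Markers of the 2-cell-like state, 6 genes with members of the multicopy Zscan4 family among which counting may split reads, summed to 137 and 157 in wild-type cells against 1892 and 1812 in Bmal1-/- cells, and the part of these differences in the values below was not tested.

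Of the 42 genes, 41 reached a mean of 10 or more and were tested. At an adjusted p below 0.05 (limma, Benjamini-Hochberg over all 14510 genes tested), 17 were lower and 3 were higher in the Bmal1-/- libraries, and 21 did not pass. Over all genes tested, 28.6% were lower and 24.0% were higher, against 41.5% and 7.32% of the 41. Among the 6972 genes with a mean of at least 500 the shares were 41.7% lower and 22.3% higher. Of the 41, 32 had such a mean, and of these 15 were lower (46.9%) and 0 were higher with limma, against 15 and 1 with edgeR and 11 and 0 with DESeq2, and 16 had an unadjusted p below 0.05 with limma. The share that was lower was thus near that of all genes of like level. The median log2 fold change of the 41 was -0.12, beside -0.03 over all genes tested and -0.08 over genes with a mean of at least 500.

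The differences were small. The log2 fold changes of the 41 genes ran from -0.72 to 0.43, and 31 were negative. None passed both the adjusted p and a 2-fold change with limma, edgeR or DESeq2, against 7.21% of all genes tested and 1.35% of those with a mean of at least 500, and 22 of the 41 had an unadjusted p below 0.05. In 27 of the 41 (65.9%) both Bmal1-/- libraries lay below both wild-type libraries, in 8 (19.5%) they lay above, and in 6 the groups overlapped. With only 2 libraries a group such separation is common, and 41.4% of all genes tested were separated downwards and 34.6% upwards, or 53.5% and 29.8% of those with a mean of at least 500. Summed over the 42 genes, the level in the Bmal1-/- libraries was 90.6% of that in the wild-type libraries. The like sum was 95.9% over all genes tested and 95.4% over those with a mean of at least 500. In bulk mRNA, fewer cells in a given phase and less mRNA per cell cannot be told apart.

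The count of higher genes depended on the scaling and the test. It was 3 with limma, 5 with edgeR on the whole reads recovered from the table, 0 with DESeq2 on those reads, and 7 when the libraries were scaled to equal totals, while the count of lower genes was 17, 17, 12 and 13 in the same order. Without Bmal1-/- replicate 1 or Bmal1-/- replicate 2, 1 gene was higher. Equal totals also moved the split of calls over all genes tested, from 3488 higher of 7639 calls to 4200 of 7394.

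**Figure D1:**
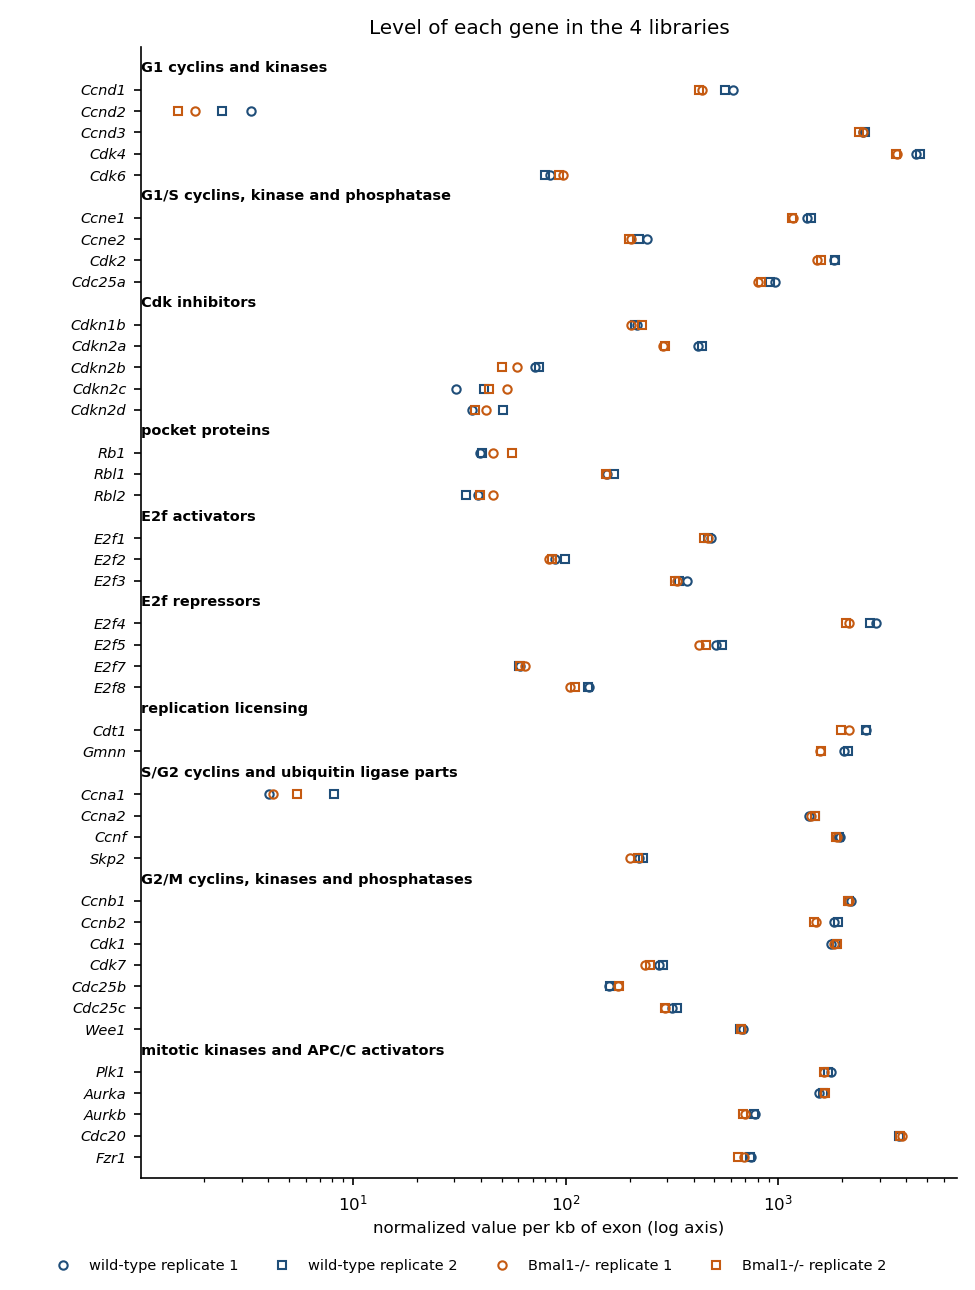
Level of each of the 42 genes, ordered by role, as the normalized value per kb of exon on a log axis, with 1 symbol for each of the 2 wild-type (blue) and 2 Bmal1-/- (orange) libraries. Cdk4 and Cdc20 were at the top, Ccnd2 and Ccna1 were near the bottom, and the distance between genes was far wider than the distance between genotypes.

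Per kb of exon, the levels of the 42 genes in the wild-type libraries spanned from 4545 for Cdk4 to 2.87 for Ccnd2. The 7 highest were Cdk4, Cdc20 (3680), E2f4 (2787), Cdt1 (2587), Ccnd3 (2536), Ccnb1 (2177) and Gmnn (2082). No neighbours among these 7 overlapped between the 2 wild-type libraries on this scale, while 8 of the 41 neighbouring pairs in the whole order did. The D-type cyclins were far apart, with Ccnd3 at 2536, Ccnd1 at 586 and Ccnd2 at 2.87 per kb. Cdk6 stood at 82.0 per kb beside 4545 for Cdk4, the other kinase of the D-type cyclins. Of the inhibitors, the 5 among the 42 genes were low, from Cdkn2a at 429 and Cdkn1b at 215 to Cdkn2d at 43.7 and Cdkn2c at 35.9 per kb, whereas Cdkn1a, encoding p21Cip1 and not one of the 42, stood at 3039 per kb. Among the pocket proteins Rbl1 (162) was above Rb1 (40.0) and Rbl2 (36.5) per kb.

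**Figure D2:**
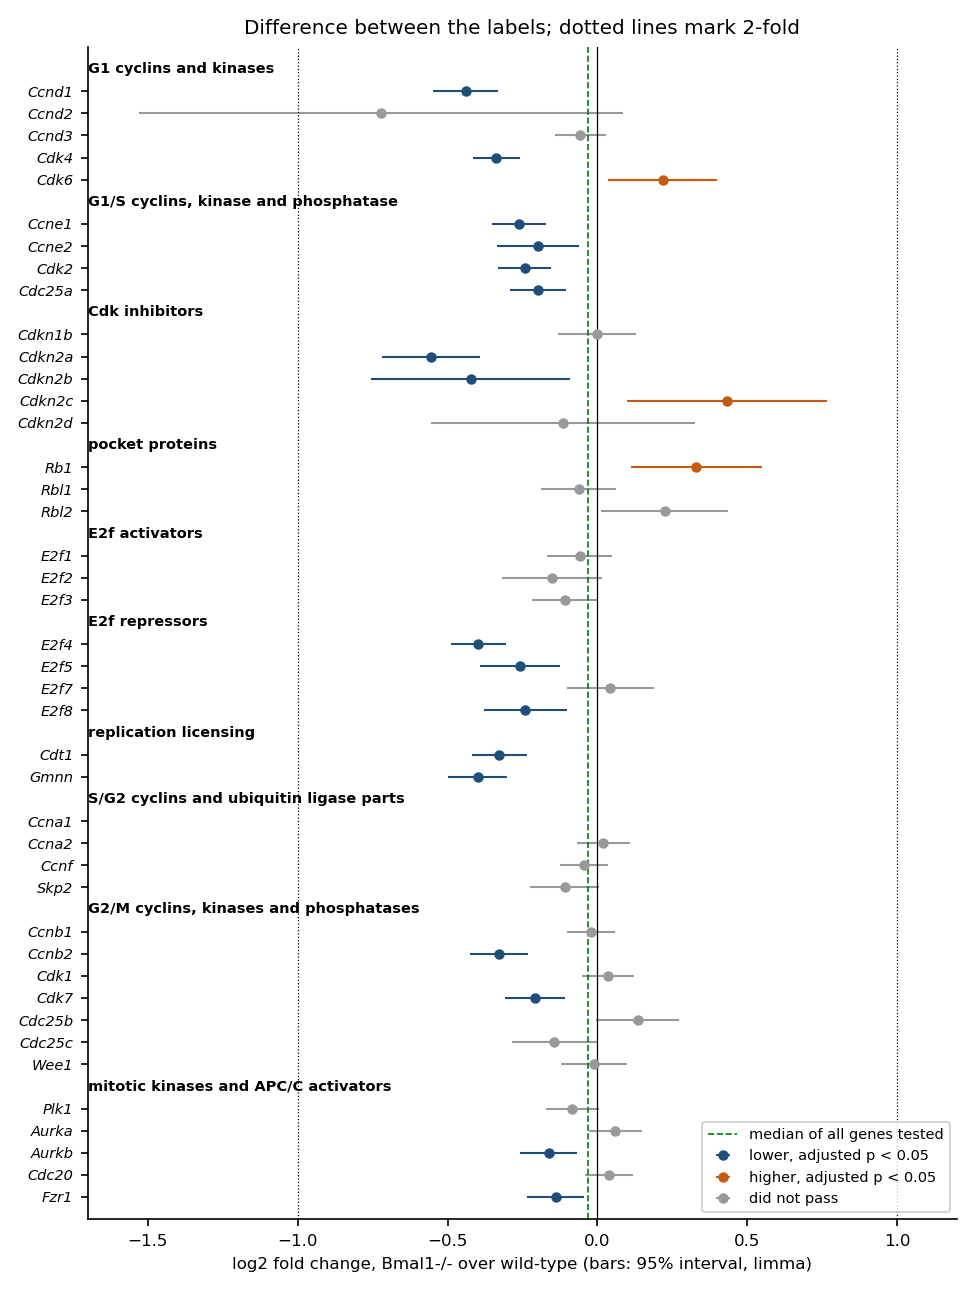
Log2 fold change of the 41 genes tested, Bmal1-/- over wild-type, with its 95% interval from limma, ordered by role; blue and orange mark the 17 lower and 3 higher genes at an adjusted p below 0.05, dotted lines mark a 2-fold change, and the dashed line marks the median of all genes tested. All 4 genes of the G1/S step and both licensing factors lie left of 0, while Ccna2, Ccnb1, Cdk1 and Cdc20 lie near it.

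At the G1 step, 2 of 5 genes were lower and 1 was higher. Ccnd1, the cyclin D1 gene, measured 2348 and 2144 in wild-type and 1680 and 1630 in Bmal1-/- libraries. The groups were well apart, with means of 2246 ± 145 (SD, n = 2) and 1655 ± 35.3 (SD, n = 2), and Ccnd1 stood at 73.7% of wild-type (log2 fold change -0.44, SE 0.05, adjusted p = 6.09e-07). Cdk4, its kinase partner and the most abundant gene of the set per kb, measured 14491 and 15045 in wild-type and 11779 and 11601 in Bmal1-/- libraries. This was 79.2% of wild-type (log2 fold change -0.34, SE 0.04, adjusted p = 3.01e-07), with every Bmal1-/- library below every wild-type library.

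Cdk6, the other kinase of cyclin D, went the other way, from 314 and 299 in wild-type to 364 and 348 in Bmal1-/- libraries (log2 fold change 0.22, SE 0.09, adjusted p = 0.0404). That call was lost without wild-type replicate 2 (adjusted p = 0.135), without Bmal1-/- replicate 1 (0.220) and without Bmal1-/- replicate 2 (0.0941). Ccnd3, the most abundant D-type cyclin here per kb, did not pass (log2 fold change -0.06, adjusted p = 0.257), and it was above 0 in 3 of the 18 alternatives, at 0.13 with trends of exon length and GC content removed (adjusted p = 0.0021). Ccnd2 measured 19.0 and 13.8 against 10.3 and 8.58, from 18, 13, 11 and 9 reads, and at this depth its log2 fold change of -0.72 had a 95% interval from -1.53 to 0.09. The ratio of Ccnd1 to Ccnd3 within a library, which no scaling of libraries alters, was 0.416 and 0.370 in wild-type and 0.299 and 0.303 in Bmal1-/- libraries.

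All 4 genes of the G1/S step were lower. Ccne1, encoding cyclin E1, measured 3641 and 3797 in wild-type and 3118 and 3086 in Bmal1-/- libraries, which is 83.4% of wild-type (log2 fold change -0.26, SE 0.04, adjusted p = 3.74e-05). Its kinase Cdk2 measured 4427 and 4487 against 3683 and 3854, or 84.6% (log2 fold change -0.24, SE 0.04, adjusted p = 6.85e-05). Both genes were separated between groups by more than the distance within a group. Cdc25a, the phosphatase that frees Cdk2 of its inhibitory phosphates, measured 3491 and 3303 against 2923 and 3000, or 87.2% (log2 fold change -0.20, adjusted p = 0.000947). Ccne2, encoding cyclin E2, stood at 87.0% (log2 fold change -0.20, adjusted p = 0.0145), and its call was lost without wild-type replicate 1 (adjusted p = 0.134), Bmal1-/- replicate 1 (0.0539) or Bmal1-/- replicate 2 (0.0996).

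The 5 Cdk inhibitors did not move together. Cdkn2a, which encodes p16Ink4a and, from another first exon and reading frame, p19Arf, had the lowest log2 fold change among the genes that passed: 490 and 513 in wild-type against 337 and 344 in Bmal1-/- libraries, or 67.9% of wild-type (log2 fold change -0.56, SE 0.08, adjusted p = 5.84e-06). Gene-level values do not separate its transcripts. Its neighbour on chromosome 4, Cdkn2b, measured 100 and 104 against 82.7 and 69.6 (log2 fold change -0.42, adjusted p = 0.0309), a call that was lost without wild-type replicate 2 (adjusted p = 0.0793) or Bmal1-/- replicate 2 (0.242). Both lie on the minus strand in the mm9 build, Cdkn2a at chr4:88920377-88940557 and Cdkn2b at chr4:88952198-88956941.

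Cdkn2c, encoding p18Ink4c, was higher, at 82.2 and 110 in wild-type against 142 and 117 in Bmal1-/- libraries (log2 fold change 0.43, SE 0.16, adjusted p = 0.0280). The nearest libraries of the groups were close, and the call was lost without wild-type replicate 1 (adjusted p = 0.255) or Bmal1-/- replicate 1 (0.273). Cdkn1b, encoding p27Kip1, measured 990 and 969 against 923 and 1038, with overlapping groups and a 95% interval from -0.13 to 0.13. Its sign changed with the scaling, from 0.00 with the deposited TMM values to 0.06 with equal totals. Cdkn2d overlapped as well (log2 fold change -0.12, adjusted p = 0.671), with the sign turned to 0.12 without wild-type replicate 2.

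Of the pocket proteins, Rb1 was higher and the others did not pass. Rb1 measured 238 and 243 in wild-type and 273 and 336 in Bmal1-/- libraries, or 127% of wild-type (log2 fold change 0.33, SE 0.10, adjusted p = 0.0113). The Bmal1-/- libraries were themselves far apart, and without Bmal1-/- replicate 2 the adjusted p was 0.275. Rbl2, encoding p130, had a log2 fold change of 0.23 (adjusted p = 0.0691), with 270 and 238 against 318 and 277, and passed without wild-type replicate 1 (adjusted p = 0.0126), with equal totals (0.0231) and with the replicate number as a block (0.0460). Rbl1, encoding p107, stood at -0.06 (adjusted p = 0.398).

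None of the 3 activator E2f genes passed, while 3 of the 4 repressor genes were lower. E2f1 measured 1523 and 1476 in wild-type and 1473 and 1407 in Bmal1-/- libraries, so that the groups nearly touched (log2 fold change -0.06, adjusted p = 0.364, 95% interval -0.17 to 0.05). E2f2 (-0.15, adjusted p = 0.116) and E2f3 (-0.11, adjusted p = 0.0926) were also below 0 without passing, and each passed when 1 wild-type library was left out: E2f2 without replicate 1 (adjusted p = 0.0335) and E2f3 without replicate 2 (0.0108). The difference between the activators and the repressors was not tested.

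E2f4, which represses target genes together with the pocket proteins and is the most abundant E2f gene here per kb, measured 5734 and 5371 in wild-type and 4302 and 4125 in Bmal1-/- libraries. That was 75.9% of wild-type (log2 fold change -0.40, SE 0.04, adjusted p = 2.26e-07), with the groups well apart. The ratio of E2f4 to E2f1 within a library was 3.76 and 3.64 in wild-type and 2.92 and 2.93 in Bmal1-/- libraries. E2f5, the close relative of E2f4, was at 83.7% (log2 fold change -0.26, adjusted p = 0.00202), a call lost without Bmal1-/- replicate 1 (adjusted p = 0.0546). E2f8, an atypical repressor that binds without a Dp partner, was at 84.7% (log2 fold change -0.24, adjusted p = 0.0048). E2f8 lost its call in 2 of the 18 alternatives, with DESeq2 and without Bmal1-/- replicate 1, where its log2 fold change was -0.20. E2f7, the other atypical repressor, had a log2 fold change of 0.04 (adjusted p = 0.626).

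Both licensing genes were lower. Cdt1, which helps load the replicative helicase on origins in G1, measured 5668 and 5657 in wild-type and 4703 and 4330 in Bmal1-/- libraries, or 79.8% (log2 fold change -0.33, SE 0.04, adjusted p = 3.1e-06). Gmnn, encoding geminin, the inhibitor of Cdt1, measured 2428 and 2523 against 1859 and 1893, or 75.8% (log2 fold change -0.40, SE 0.05, adjusted p = 5.61e-07). The wild-type libraries were above the Bmal1-/- libraries for both, and the ratio of Cdt1 to Gmnn overlapped between groups (2.33 and 2.24 against 2.53 and 2.29).

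Of the genes of S phase and G2, the 3 tested did not pass. Ccna2, encoding cyclin A2, measured 4903 and 5206 in wild-type and 5021 and 5228 in Bmal1-/- libraries, with overlapping groups and a 95% interval from -0.07 to 0.11. Skp2, the ubiquitin ligase part that marks p27Kip1 for destruction, measured 1371 and 1431 against 1247 and 1351 (log2 fold change -0.11, adjusted p = 0.105), and passed without wild-type replicate 1 (adjusted p = 0.0492) and with the length trend removed (0.0127). Ccnf, encoding cyclin F, stood at -0.04 (adjusted p = 0.358). Ccna1, the cyclin A of the germ line, fell under the limit of a mean of 10, at 6.32 and 12.7 against 6.58 and 8.58, and was not tested.

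At G2/M, 2 of 7 genes were lower, and Ccnb1 and Cdk1 did not pass. Ccnb1, encoding cyclin B1, measured 9284 and 9078 in wild-type and 9082 and 9006 in Bmal1-/- libraries, and its kinase Cdk1 measured 6066 and 6431 against 6286 and 6522. For both the groups overlapped, and the 95% intervals were -0.10 to 0.06 for Ccnb1 and -0.05 to 0.12 for Cdk1. Ccnb2, encoding cyclin B2, differed: 2802 and 2943 against 2321 and 2255, or 79.7% of wild-type (log2 fold change -0.33, SE 0.05, adjusted p = 5.66e-06). The ratio of Ccnb2 to Ccnb1 within a library was 0.302 and 0.324 in wild-type and 0.256 and 0.250 in Bmal1-/- libraries. Cdk7, the kinase that activates other Cdks and also acts in transcription, was at 86.5% (log2 fold change -0.21, adjusted p = 0.00106). The phosphatase genes Cdc25b (0.13, adjusted p = 0.0945) and Cdc25c (-0.14, adjusted p = 0.0848) and the inhibitory kinase Wee1 (-0.01, adjusted p = 0.881) did not pass. Cdc25b passed upwards with edgeR, with equal totals (0.19, adjusted p = 0.0182) and with the length trend removed (0.17, adjusted p = 0.0332). It also did so with trends of length and GC content removed (0.21, adjusted p = 0.00735), while Cdc25c passed in no alternative. Wee1 was above 0 with equal totals (0.05) and passed upwards with trends of length and GC content removed (0.14, adjusted p = 0.0226).

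Of the mitotic kinases and APC/C activators, 2 of 5 were lower. Plk1, a kinase of mitotic entry and spindle assembly, measured 3905 and 3767 in wild-type and 3604 and 3630 in Bmal1-/- libraries (log2 fold change -0.08, adjusted p = 0.101), and it was above 0 with the length trend removed (0.03). Cdc20, the APC/C activator of early mitosis, measured 6877 and 6870 against 7113 and 7003 (log2 fold change 0.04, adjusted p = 0.425), a difference that passed upwards with equal totals, quantile normalization and each removed trend. Aurka, the spindle pole kinase, behaved in the same way (0.06, adjusted p = 0.249). Aurkb, the kinase of the chromosomal passenger complex, was at 89.3% (log2 fold change -0.16, adjusted p = 0.00563), and Fzr1, the APC/C activator of late mitosis and G1, was at 90.8% (log2 fold change -0.14, adjusted p = 0.0130). Aurkb lost its call in 6 of the 18 alternatives and Fzr1 in 7, with equal totals, limma without a trend and DESeq2 among them for both. Without Bmal1-/- replicate 2 the log2 fold change was -0.15 for Aurkb and -0.10 for Fzr1.

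**Figure D3:**
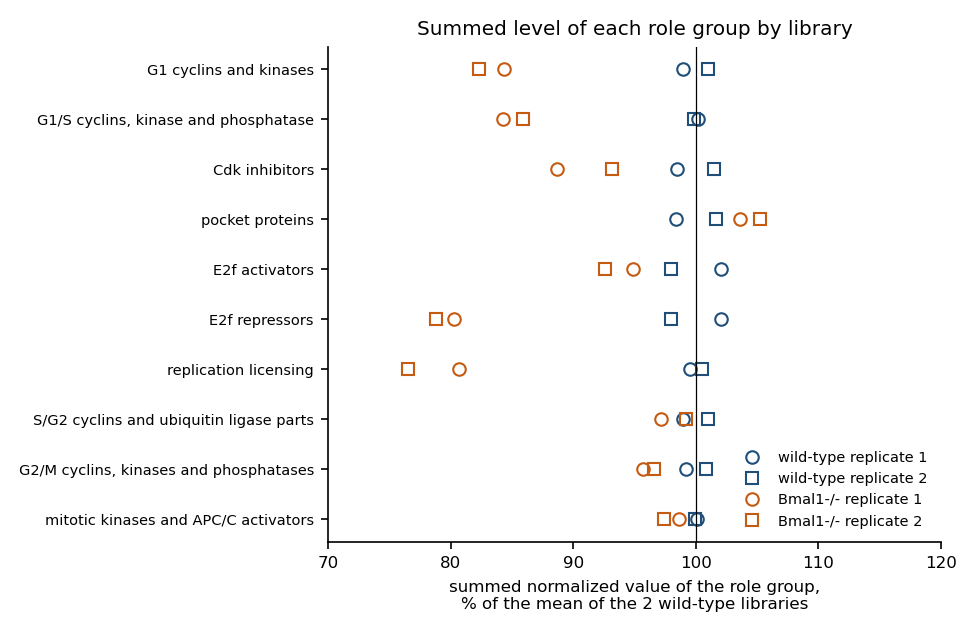
Summed normalized value of each role group in each of the 4 libraries, as a percentage of the mean of the 2 wild-type libraries (blue, wild-type; orange, Bmal1-/-; circles, replicate 1; squares, replicate 2). The groups of G1, G1/S, E2f repressor and licensing genes stood at 78.6% to 85.1% of wild-type, and those of S/G2, G2/M and mitotic genes at 96.1% to 98.2%. The sum over all genes tested stood at 95.9%.

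Summed by role, the Bmal1-/- libraries held 83.3% of the wild-type level of the G1 cyclins and kinases, 85.1% of the G1/S genes, 79.5% of the E2f repressors and 78.6% of the licensing genes. They held 98.2% of the S/G2 genes, 96.1% of the G2/M genes and 98.0% of the mitotic kinases and APC/C activators. The inhibitors (90.9%) and E2f activators (93.7%) lay between, and the pocket proteins were at 104%. These percentages stand beside 95.9% for the sum over all genes tested and 95.4% over those with a mean of at least 500. Each sum is dominated by its most abundant genes, and sums were not tested against each other.

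Across the 18 alternatives, all 20 genes that passed kept their direction. Of the 17 lower genes, 9 passed in every alternative: Ccnd1, Cdk4, Ccne1, Cdk2, Cdkn2a, E2f4, Cdt1, Gmnn and Ccnb2. Of these 9, 7 kept the call but had a log2 fold change smaller by over 1.5 times with trends of exon length and GC content removed, all but Ccnd1 and Cdk4. None of the 3 higher genes passed in every alternative. Cdc25a and Cdk7 lost their call only when limma was fitted without a trend of the variance on the level (highest adjusted p 0.072 and 0.067). Of the 21 genes that did not pass, 10 passed in none of the alternatives, and Ccnd3 and Wee1 passed upwards with length and GC content trends removed.

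**Figure D4:**
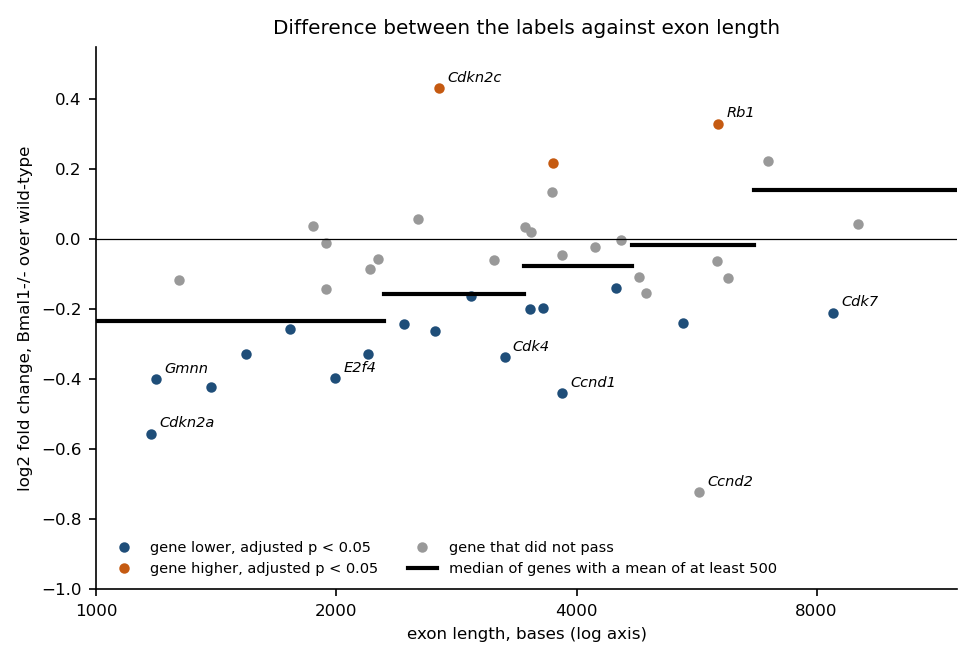
Log2 fold change, Bmal1-/- over wild-type, of the genes tested against exon length on a log axis (blue, lower; orange, higher; grey, did not pass), with black bars for the median of all genes with a mean of at least 500 in each of 5 ranges of exon length; the outermost bars run on beyond the axis. The bars climb from -0.23 for the shortest genes to 0.14 for the longest, and Gmnn, Cdkn2a and E2f4 lie below the bar at their length.

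Exon length, counted over all annotated exons of a gene, moved with the difference between the groups. This length can exceed that of the transcripts the cells made, which gene-level values do not show. Among all genes with a mean of at least 500, the median log2 fold change was -0.23 in the shortest 20.0% of genes (up to 2292 bases), then -0.16, -0.07 and -0.02 in ranges of like size, and 0.14 in the longest (from 6674 bases). The cell cycle genes in the same ranges had medians of -0.26 (13 genes), -0.16 (7 genes), -0.02 (11 genes), -0.11 (7 genes) and 0.04 (3 genes). Cdkn2a, with 1170 bases of exon, and Gmnn, with 1189, are the shortest of the 42, while Cdk7, with 8386, is longer than every other gene here except E2f7, with 9009. With the length trend removed, 14 genes were lower and 6 were higher, and with length and GC content trends removed, 16 and 8. Cdkn2b, E2f5 and Aurkb no longer passed under either. Of the genes that passed in every alternative, Ccnd1 (3835 bases) and Cdk4 (3249 bases) moved least, from -0.44 to -0.39 and from -0.34 to -0.24 with both trends removed. The others passed with smaller differences: Cdt1 went from -0.33 to -0.14, Ccne1 from -0.26 to -0.14, Cdk2 from -0.24 to -0.13, Ccnb2 from -0.33 to -0.18, Gmnn from -0.40 to -0.22, E2f4 from -0.40 to -0.23 and Cdkn2a from -0.56 to -0.32. Cdk7, one of the longest, went the other way, from -0.21 to -0.37, and Fzr1 (-0.05, adjusted p = 0.284) no longer passed. The part of length in the single values was not tested beyond these fits.

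Some exons of these genes are shared with a gene on the opposite strand. By the annotation of the mm9 build, shared bases make up 21.3% of the exons of Ccnd1 (with Oraov1), 18.6% of Cdk4 (Tspan31), 17.4% of Ccne2 (Ints8), 15.7% of Ccnd3 (Bysl) and 14.6% of Ccna2 (Exosc9). The libraries were made with a stranded kit, but whether the counting used the strand is not given in the sources used here, so reads of the partner could be in these values.

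Upstream sequence was looked at for the motifs that cell cycle factors bind. RefSeq promoters of GRCm38.p6 (250 bases before to 50 after a start) were found for 31 of the 42 genes, 37 promoters in all. The E2F site, searched as TTTCCCGC, TTTGGCGC, TTTCGCGC and TTTGCCGC, was present in 9 of the 37 (24.3%) against 2.26% of all 32851 promoters. The CHR element, bound by the MuvB complexes of G2/M genes and searched as TTTGAA and TTCGAA, was in 35.1% against 19.2%. CCAAT was in 62.2% against 37.4%, and the E-box CACGTG, the motif that Bmal1 with Clock and also Myc can bind, in 13.5% against 7.15%. All motifs were searched on both strands, each on its own, so that overlapping letters could count for more than 1 motif, and a match is a run of letters, not a bound site. By gene, the E2F site was in a promoter of 4 of the 11 lower genes that had one and of 5 of the other 20, and the E-box was found for Cdk4, Cdk6, Cdk7, Cdkn2c and E2f3, of which Cdk4 and Cdk7 were lower, Cdk6 and Cdkn2c were higher and E2f3 did not pass.

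The 200 bases before the start are shown for Cdk4, which held 4 E-boxes; for Cdk2 and Cdc25a, lower genes of the G1/S step with an E2F site; and for Cdk1, which held an E2F site and 2 CHR elements and whose groups overlapped. Capitals mark the E-box, E2F or CHR matches, the sequences are written 5′ to 3′ on the strand of the gene, and the coordinates are those of GRCm38.p6.
Cdk4 (chr10:127063335-127063534, plus strand): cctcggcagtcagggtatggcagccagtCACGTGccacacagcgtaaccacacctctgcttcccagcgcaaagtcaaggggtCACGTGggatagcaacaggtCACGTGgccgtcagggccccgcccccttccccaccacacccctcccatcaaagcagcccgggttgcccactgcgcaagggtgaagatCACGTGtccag
Cdk2 (chr10:128705052-128705251, minus strand): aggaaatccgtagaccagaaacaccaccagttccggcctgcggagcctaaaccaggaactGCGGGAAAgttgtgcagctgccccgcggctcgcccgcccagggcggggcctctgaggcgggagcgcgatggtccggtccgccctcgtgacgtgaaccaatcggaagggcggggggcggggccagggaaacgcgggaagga
Cdc25a (chr9:109875379-109875578, plus strand): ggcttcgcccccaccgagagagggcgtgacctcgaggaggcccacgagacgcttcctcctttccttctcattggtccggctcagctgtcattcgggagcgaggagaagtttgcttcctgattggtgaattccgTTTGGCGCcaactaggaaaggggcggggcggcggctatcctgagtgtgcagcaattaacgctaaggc
Cdk1 (chr10:69352913-69353112, minus strand): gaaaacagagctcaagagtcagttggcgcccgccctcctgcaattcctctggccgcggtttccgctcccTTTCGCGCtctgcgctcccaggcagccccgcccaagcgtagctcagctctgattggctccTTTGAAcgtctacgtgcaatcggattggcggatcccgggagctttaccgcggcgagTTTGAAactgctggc
In the Cdk2 sequence the E2F match reads on the other strand. Cdk4 was at 79.2% of wild-type, Cdk2 at 84.6%, Cdc25a at 87.2% and Cdk1 at 102%. These genes were picked partly by their calls, and a link between motif and level was not tested.

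Other cell cycle genes, taken from lists, give the surroundings of these values. Their counts stand beside 28.6% lower and 24.0% higher over all genes tested, and 41.7% and 22.3% among genes with a mean of at least 500, to which 41 of the 42 replication genes, all 44 mitosis genes tested, 23 of the 24 ubiquitin ligase genes and 23 of the 31 other cyclins, Cdks and inhibitors belonged. Of 42 replication and S phase genes, 28 were lower (66.7%) and 4 were higher (9.52%), with a median log2 fold change of -0.18. Pola2, a subunit of the primase-polymerase that starts DNA strands (-0.49, adjusted p = 3.98e-08), and Rrm2, a subunit of the enzyme that makes deoxynucleotides (-0.43, adjusted p = 1.67e-08), were the lowest. Pole (0.16, adjusted p = 0.00249) and Pola1 (0.15, adjusted p = 0.00805), which encode catalytic subunits of DNA polymerases, were the highest of those that passed and have 9590 and 8813 bases of exon. Only 2 of these genes were higher without Bmal1-/- replicate 1, and 1 without Bmal1-/- replicate 2.

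Mitosis genes were split, with 13 higher (29.5%) and 9 lower (20.5%) of 44 and a median of -0.03. Pttg1, encoding securin, measured 1978 and 2132 in wild-type and 2981 and 2896 in Bmal1-/- libraries (0.52, adjusted p = 2.38e-08). It and the kinetochore gene Cenpf (0.38, adjusted p = 7.19e-07) were the highest, and the spindle checkpoint gene Mad2l1 (-0.42, adjusted p = 1.25e-07) and the centromeric histone gene Cenpa (-0.36, adjusted p = 4.4e-07) were the lowest. Without wild-type replicate 1, 15 mitosis genes were lower.

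A list of 24 genes held subunits and partners of the APC/C and of SCF-type ubiquitin ligases, and also Cul4a, Cul4b, Ddb1 and Dtl of Cul4-type ligases. Of these 24, 12 were lower (50%) and 2 were higher (8.33%), with a median of -0.09. The share that was lower lay near that of genes of like level. Anapc10 measured 1415 and 1571 in wild-type and 984 and 1032 in Bmal1-/- libraries (-0.57, adjusted p = 1.13e-07). It and Cdc26 (-0.47, adjusted p = 1.46e-05), both APC/C subunits, were the lowest, and Btrc (0.31, adjusted p = 0.000162), an F-box protein gene, and Cdc27 (0.17, adjusted p = 0.0031), another APC/C subunit, were higher. Without Bmal1-/- replicate 2 only 1 of these genes was higher.

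Of 8 genes for E2f partners and the MuvB core, among which E2f6 was also listed, Tfdp1 was lower and Tfdp2 and Lin54 were higher (median -0.05). Tfdp1, encoding the main Dp partner of the E2f proteins, measured 7474 and 7139 in wild-type and 5045 and 5142 in Bmal1-/- libraries, or 69.7% (log2 fold change -0.52, SE 0.04, adjusted p = 1.44e-09). Its relative Tfdp2 was at 0.24 (adjusted p = 0.000459) and Lin54, the MuvB subunit that contacts the CHR element, at 0.42 (adjusted p = 1.01e-05).

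Among 31 other cyclins, Cdks and Cdk inhibitors tested, 7 were higher (22.6%) and 8 were lower (25.8%), near the shares over all genes tested (median -0.08). Of the 23 with a mean of at least 500, 6 were higher and 6 were lower, beside 22.3% and 41.7% of all genes at that level. Cdkn1a, named after its values were seen because its level per kb was so far above that of the other inhibitors, measured 6779 and 6731 in wild-type and 5397 and 5243 in Bmal1-/- libraries, or 78.8% (log2 fold change -0.34, SE 0.04, adjusted p = 4.1e-07). It passed in all 18 alternatives, with log2 fold changes from -0.37 to -0.19. Cdkn1c, encoding p57Kip2, was the only gene of these lists past 2-fold, at 79.0 and 85.0 in wild-type against 32.9 and 43.9 in Bmal1-/- libraries (log2 fold change -1.09, SE 0.20, adjusted p = 0.000126). Cdk20 was at -0.40 (adjusted p = 0.0082), and Cdk18 (0.47, adjusted p = 2.2e-05) and Cdk19 (0.37, adjusted p = 1.64e-05) were the highest. The count of higher genes was 3 without wild-type replicate 2 or Bmal1-/- replicate 2, and the count of lower genes was 5 without Bmal1-/- replicate 1.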

How the data were processed

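The authors made stranded mRNA libraries of poly(A) RNA (paired 75-base reads), trimmed the reads with cutadapt 1.9.1 after bcl2fastq 2.18.0.12 and aligned them to mm9 with STAR 2.5.2b. The counting tool, its strand setting and its annotation are not given in the sources used here. The deposited signal values are gene counts that the authors scaled by the trimmed mean of M values, so depth and composition, but not length, are taken out. Low values were whole multiples of the value of 1 read, and 100% of values came out whole within 0.01, which gave back the reads. No column was left unmapped. All 37310 identifiers matched a symbol in a separate list of gene names, and the exon lengths and overlaps came from the mm9 gene annotation. An exon length is the union of all annotated exons of a gene, so levels per kb and length trends rest on that measure.

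Values were compared as log2(value + 1) with limma 3.58.1 (eBayes with trend; R 4.3.3) over 14510 genes with a mean of at least 10, wild-type against Bmal1-/-, with Benjamini-Hochberg adjustment over all of them and a call at an adjusted p below 0.05. A fold change on this scale understates that of low genes. Alternatives were edgeR 4.0.16 (quasi-likelihood) and DESeq2 1.42.0 on whole reads, other scalings, filters and pseudocounts, a replicate block, and each library left out. The scripts were run on simulated data with 200 of 14510 genes changed. Limma recovered 179 of these with 17 false calls, edgeR 179 with 7 false calls and DESeq2 162 with 3 false calls. These counts were not split by size, and recovery at the small sizes of the cell cycle genes that passed was not tested on its own. Recovery and false calls where 7639 of 14510 genes pass, as in these libraries with limma, were not tested. The study describes the 2 libraries of a line as biological replicates, but not how their cultures were kept apart, so p-values measure the spread between these libraries. The titles number the libraries of each line as experiments 1 and 2, and no source used here says whether a number marks work done together in both lines.

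Intervals are those of limma, at 21504265 to 23329034 reads on genes per library. The 42 genes, the other lists and the markers were chosen with earlier results of these data known, so they carry no test as lists and no p adjusted over a list. All 42 are named. Values by library are given for genes past 0.5 on the log2 scale with an adjusted p below 0.05, for the gene under the filter and for founding members of each role; of each other list the 2 lowest and 2 highest that passed are named. Values by library of further genes, Cdkn1a among them, and the ratios between genes, were chosen after their values were seen. Exon trends were removed with lowess (span 0.3) in each library.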

Additional observations from a re-analysis of the deposited data

How the results depend on the processing

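With the deposited scaling, a minimum mean of 10 and limma with a trend, 3 of the 41 genes were higher and 17 lower. With no filter, or a minimum mean of 1, 0 were higher, and the median log2 fold change, -0.12, was -0.13 in both. With median-ratio size factors the median was -0.10. With equal library totals it was -0.056, with 7 higher and 13 lower. Quantile normalization put 1 gene, Ccnd2, past 2-fold (-1.19). Limma without a trend left 0 higher and 10 lower, edgeR on whole reads gave 5 higher, and DESeq2 gave 0 higher and a median of -0.10. With the length trend removed 6 were higher, and with length and GC trends removed 8; both corrections were chosen after seeing the data. Over the fits that left out 1 library each, 1 to 3 were higher, 13 to 18 lower, and the median ran from -0.13 to -0.10; an arm left with 1 library is assumed to vary like the other.

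Of the replication genes (4 higher, 28 lower), 2 were higher with no filter and 8 with equal totals, and limma without a trend gave 0 higher and 13 lower; leaving out 1 library gave 1 to 4 higher. Of the mitosis genes (13 higher, 9 lower), limma without a trend gave 7 higher and 4 lower, length and GC trends removed gave 8 higher, equal totals and DESeq2 gave 5 lower each, and leaving out 1 library gave 6 to 15 lower. Of the ubiquitin ligase genes (2 higher, 12 lower), 1 was higher with no filter, 4 with equal totals, 4 with quantile normalization and 1 without a trend, where 6 were lower; leaving out 1 library gave 1 to 2 higher. With either trend removed 2 genes of the E2f partner and MuvB list were lower in place of 1. Of the other cyclins, Cdks and inhibitors (7 higher, 8 lower), 3 were higher with no filter, 3 with a minimum mean of 1, 3 without a trend and 4 with either length correction, and 5 were lower with no filter, 3 without a trend and 4 with DESeq2; leaving out 1 library gave 3 to 7 higher and 5 to 8 lower. The causes were not tested.

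The log2 fold changes that turned sign belonged to genes that had not passed.
Ccnd3 (-0.057) was 0.00376 with equal totals, 0.054 with the length trend removed and 0.13 with length and GC trends removed. Cdkn1b (-0.000988) was 0.014 with median-ratio size factors, 0.059 with equal totals, 0.045 with quantile normalization, 0.025 with edgeR, 0.032 with DESeq2, 0.00413 with the length trend removed and -0.085 to 0.083 when 1 library was left out. Cdkn2d (-0.12) was 0.054 with the length trend removed, 0.10 with length and GC trends removed and -0.35 to 0.12 when 1 library was left out. E2f1 (-0.058) was 0.00208 with equal totals, 0.00916 with the length trend removed and 0.083 with length and GC trends removed. E2f7 (0.043) was -0.12 with the length trend removed and -0.11 with length and GC trends removed. Ccna2 (0.020) was -0.023 to 0.063 when 1 library was left out. Ccnf (-0.043) was 0.017 with equal totals, 0.00356 with quantile normalization and 0.023 with length and GC trends removed. Ccnb1 (-0.022) was 0.039 with equal totals, 0.00248 with edgeR and 0.00941 with DESeq2. Cdk1 (0.036) was -0.00642 to 0.078 when 1 library was left out. Wee1 (-0.011) was 0.00448 with median-ratio size factors, 0.050 with equal totals, 0.046 with quantile normalization, 0.013 with edgeR, 0.020 with DESeq2, 0.11 with the length trend removed, 0.14 with length and GC trends removed and -0.039 to 0.018 when 1 library was left out. Plk1 (-0.084) was 0.029 with the length trend removed and 0.077 with length and GC trends removed.

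The titles number the libraries of both groups as experiments 1 and 2. Whether a number marks a shared experiment is not stated, and same-numbered libraries did not deviate together (correlation of deviations -0.02), so the numbers were not used as pairs. With the replicate number as a replicate block, 4 genes were higher, 17 lower and 0 past 2-fold, Rbl2 being the added call. Errors were wide for genes of few reads: the SE of the log2 fold change was 0.39 for Ccnd2 (9 to 18 reads a library) and 0.21 for Cdkn2d (44 to 61), against 0.04 for Cdk4. No alternative moved the median of all genes by over 0.1 through its scaling.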
